A study of Neurospora crassa with 2 samples.

Results

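Transcripts of 5 regulator genes for cellulose and xylan use, clr-1, clr-2, NCU05846, xlr-1 and vib-1, were counted by RNA sequencing of mycelia from the filamentous fungus Neurospora crassa. They were taken by locus tag from a table of 9730 genes, and all 5 were found in it. NCU05846 was listed under the name clr-3. The reference gene table used here gives it no symbol, so it is called by its locus tag. It was listed as a repressor of CLR-1 activity and the other members as activators, and these roles were not tested here. The Δ3βGΔncw-1 strain is deleted for ncw-1, the gene of a cell wall protein that is not anchored, and for gh1-1, gh3-3 and gh3-4, genes of enzymes that split cellobiose (β-glucosidases). The Δ3βG strain is deleted for the same 3 β-glucosidase genes and carries ncw-1. Both labels give mating type a, and both strains were grown for 20 h in a medium abbreviated MM and then held for 4 h in Vogel's salts with 1% cellobiose, the disaccharide that cellulases release from cellulose. There was 1 library per genotype, with no library of a strain that keeps its β-glucosidases, so the genotypes are compared by values and their counting error, without replicates and without a test.

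N. crassa secretes cellulases and xylanases when a soluble sugar from plant cell walls reaches the cell and preferred sugars are scarce. CLR-1 and CLR-2 are zinc cluster transcription factors needed for growth on cellulose. CLR-1 acts when cellobiose is present and promotes expression of clr-2, and CLR-2 drives most cellulase genes. XLR-1, the relative of XlnR of Aspergillus, activates genes for xylan and xylose use. VIB-1, a factor of the Ndt80 type first known from heterokaryon incompatibility, is also needed for full clr-2 expression on cellulose.

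The libraries followed their labels for ncw-1 and differed in further ways. The RPKM (reads per kilobase of transcript model at equal library depth) of ncw-1 was 2.62 in Δ3βGΔncw-1 and 435 in Δ3βG. The deleted β-glucosidase genes had between 0.350 and 3.41 RPKM in Δ3βGΔncw-1 and between 0.342 and 1.09 RPKM in Δ3βG. The mat A gene matA-1 and the mat A pheromone gene ccg-4 had 15.4 and 87.9 RPKM in Δ3βGΔncw-1 and were listed at 0 in Δ3βG, although both labels say mating type a, and of the other mat A genes matA-3 had 0.269 RPKM in Δ3βGΔncw-1 and 0 in Δ3βG, and matA-2 had 0 in each. The mat a pheromone gene mfa-1 had 34.98 RPKM in Δ3βGΔncw-1 and 141 RPKM in Δ3βG. The label mycelia was checked against the Woronin body gene hex-1, with 2970 RPKM in Δ3βGΔncw-1 and 3247 RPKM in Δ3βG. Of 6 marker genes of conidia and aerial hyphae, 3 were at least 2-fold lower in Δ3βGΔncw-1, 0 were at least 2-fold higher, and none was at 0. Of the 5989 genes with 10 RPKM or more in at least 1 library, 11.1% were at least 2-fold lower and 8.08% higher. The 6 markers summed to 2521 RPKM in Δ3βGΔncw-1 and 61282 RPKM in Δ3βG. Most of it was eas, with 1746 RPKM in Δ3βGΔncw-1 and 60350 RPKM in Δ3βG. Within 2-fold, con-8 and con-10 were higher in Δ3βGΔncw-1, at 514 and 90.0 RPKM, than in Δ3βG, at 487 and 66.1 RPKM. The part of the mating-type and conidiation differences in the results below was not tested. In bulk RNA, fewer cells of a type and less RNA per cell cannot be told apart.

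All 5 regulator genes had higher RPKM in Δ3βGΔncw-1. Each was at least 2-fold higher in RPKM + 1, the size rule used throughout, which takes only genes whose higher RPKM was at least 10. By the same rule 8.08% of 5989 genes were higher and 11.1% were lower, ncw-1 included. The folds ranged from 2.45 for clr-1 to 17.2 for clr-2. At 4-fold or more, 4 of the 5 were higher, against 3.41% of the 5989 genes, and the exception was clr-1. The median log2 ratio of the 5 genes was 2.78, and that of the 5989 genes was −0.32, so each regulator gene lay further from the median gene than its own ratio shows. Only clr-2 was under 10 RPKM in Δ3βG, and it entered the count through its level in Δ3βGΔncw-1, which fixed its direction. Of the genes with at least 10 RPKM in Δ3βG, a limit added after the values had been seen, all 4 regulator genes were higher, against 4.82% of 5667 genes.

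**Figure D1:**
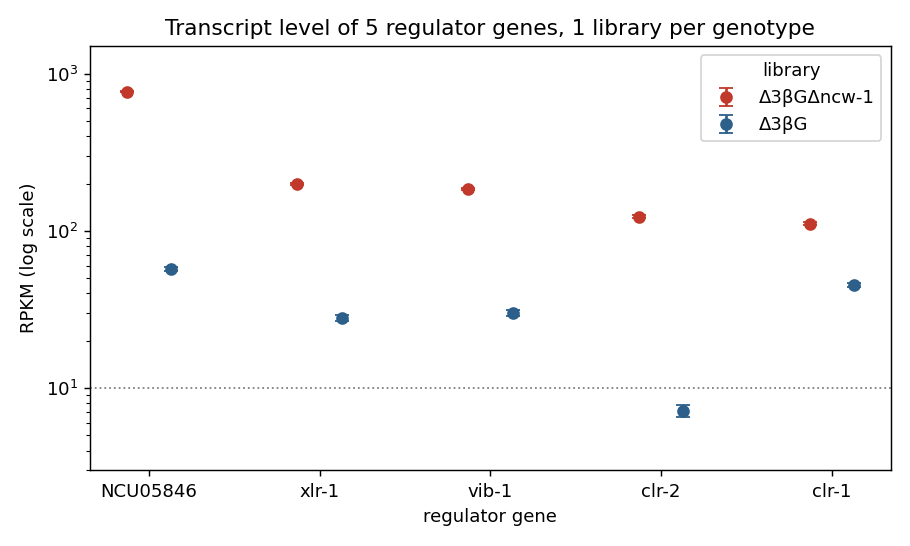
RPKM on a log axis for each regulator gene in the Δ3βGΔncw-1 library (left point of each pair) and the Δ3βG library (right point), with bars for the exact 95% Poisson interval of the recovered reads and a dotted line at 10 RPKM. Every regulator gene was higher in Δ3βGΔncw-1, and only clr-2 in Δ3βG, at 7.14 RPKM, lay under the line.

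The gene of the cellobiose-dependent activator, clr-1 (NCU07705), had 111 RPKM in Δ3βGΔncw-1 and 45.3 RPKM in Δ3βG. These values rest on 9454 reads in Δ3βGΔncw-1 and 3952 reads in Δ3βG over a gene model of 4251 bases. Its RPKM was 2.45-fold higher, with an exact 95% interval of 2.36 to 2.54. This and all later intervals reflect the number of reads alone, not how cultures vary. It had the smallest log2 ratio of the 5 genes, 1.27, or 1.60 relative to the median gene. Of the 5989 genes, 6.18% had a log2 ratio as high or higher.

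The cellulase activator gene, clr-2 (NCU08042), had 123 RPKM in Δ3βGΔncw-1 and 7.14 RPKM in Δ3βG. In Δ3βG it was the only regulator gene below the median of all genes, at 0.498 times that median, with 64.4% of the 9730 genes at its level or above. In Δ3βGΔncw-1 it stood at 10.6 times the median, with 5.98% of genes at its level or above. Its 8221 reads in Δ3βGΔncw-1 and 490 reads in Δ3βG gave a 17.2-fold higher RPKM (95% interval 15.7 to 18.9) and a log2 ratio of 3.93. It ranked 65 among 5989 genes by log2 ratio.

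NCU05846 had the highest RPKM of the 5 genes in both libraries, 767 in Δ3βGΔncw-1 and 57.3 in Δ3βG. It ranked 72 among 9730 genes by RPKM in Δ3βGΔncw-1 and 1486 in Δ3βG. Its RPKM was 13.4-fold higher (95% interval 12.9 to 13.9), from 44573 reads in Δ3βGΔncw-1 and 3413 reads in Δ3βG. The log2 ratio was 3.72, which ranked 74 among 5989 genes. NCU05846 made up 55.5% of the summed RPKM of the 5 genes in Δ3βGΔncw-1 and 34.2% in Δ3βG. The sum was 1383 RPKM in Δ3βGΔncw-1 and 168 RPKM in Δ3βG, 8.25 times as much, and without NCU05846 it was 616 RPKM in Δ3βGΔncw-1 and 110.4 RPKM in Δ3βG, 5.58 times as much.

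The xylanase activator gene xlr-1 (NCU06971) and vib-1 (NCU03725) had similar levels and folds. The RPKM of xlr-1 was 198 in Δ3βGΔncw-1 and 27.96 in Δ3βG, 7.08-fold higher (95% interval 6.75 to 7.43). The RPKM of vib-1 was 184 in Δ3βGΔncw-1 and 29.96 in Δ3βG, 6.15-fold higher (95% interval 5.86 to 6.45). Their log2 ratios were 2.78 and 2.58, ranking 131 and 146 among 5989 genes. The reads behind them were 13172 in Δ3βGΔncw-1 and 1906 in Δ3βG for xlr-1, and 11854 in Δ3βGΔncw-1 and 1975 in Δ3βG for vib-1. In the plot of all genes, both points lie almost on each other, between clr-1 and NCU05846 in height.

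**Figure D2:**
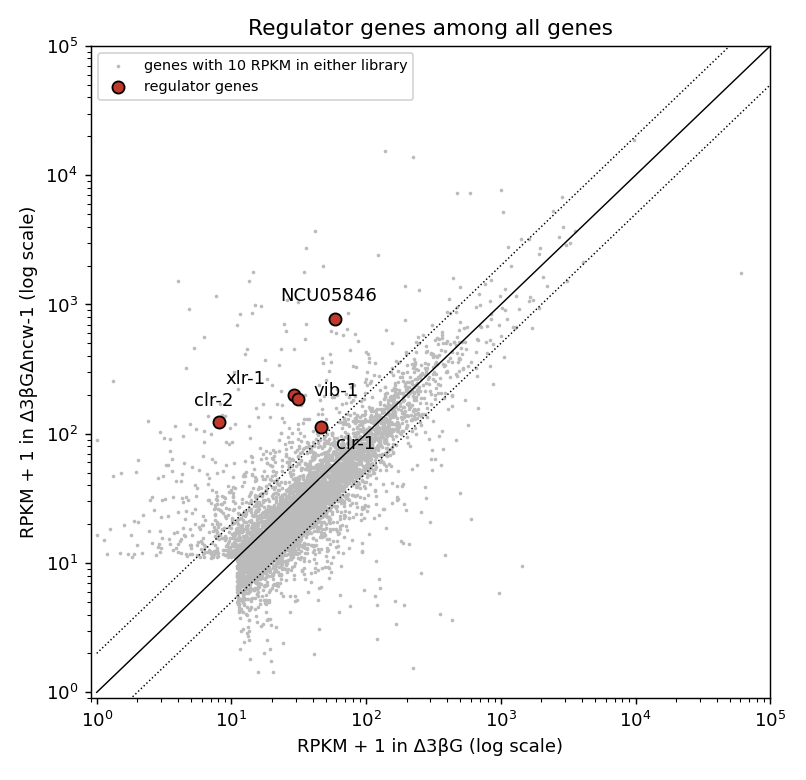
RPKM + 1 in Δ3βGΔncw-1 against RPKM + 1 in Δ3βG, both on log axes, for genes that had 10 RPKM or more in at least 1 library (grey) and the 5 regulator genes (red), with a solid line at equal values and dotted lines at 2-fold. All 5 regulator genes lie above the upper dotted line, clr-2 at the left with 7.14 RPKM in Δ3βG and clr-1 nearest to the line.

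The order of the 5 genes by RPKM, which is a level per length, differed between the libraries. In Δ3βGΔncw-1 it was NCU05846, xlr-1, vib-1, clr-2 and clr-1. In Δ3βG it was NCU05846, clr-1, vib-1, xlr-1 and clr-2. The gene clr-1 thus stood second in Δ3βG and last in Δ3βGΔncw-1. The closest neighbours were xlr-1 and vib-1, with xlr-1 at 1.07 times the RPKM of vib-1 in Δ3βGΔncw-1 (95% interval 1.05 to 1.10), and vib-1 at 1.07 times that of xlr-1 in Δ3βG (1.01 to 1.14). The next closest pair in Δ3βGΔncw-1 was clr-2 and clr-1, with a ratio of 1.11 (1.07 to 1.14). These small differences exceed counting error, and whether they exceed the spread between cultures is unknown with 1 library per genotype.

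The amount of clr-2 relative to clr-1 differed most between the libraries among the 10 pairs. The RPKM of clr-2 was 1.11 times that of clr-1 in Δ3βGΔncw-1 and 0.158 times in Δ3βG. The fold of clr-2 was therefore 7.01 times that of clr-1 (95% interval 6.36 to 7.74). A ratio between genes of the same library does not depend on how the libraries are scaled to each other. The fold of clr-1 was also smaller than those of NCU05846, xlr-1 and vib-1, which were 5.46, 2.89 and 2.51 times as large. The smallest difference was that between xlr-1 and vib-1, with a ratio of folds of 1.15 (1.08 to 1.23), followed by clr-2 over NCU05846 at 1.28 (1.17 to 1.42). The interval excluded equal folds for each of the 10 pairs, with counting error alone considered and without adjustment over the pairs.

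**Figure D3:**
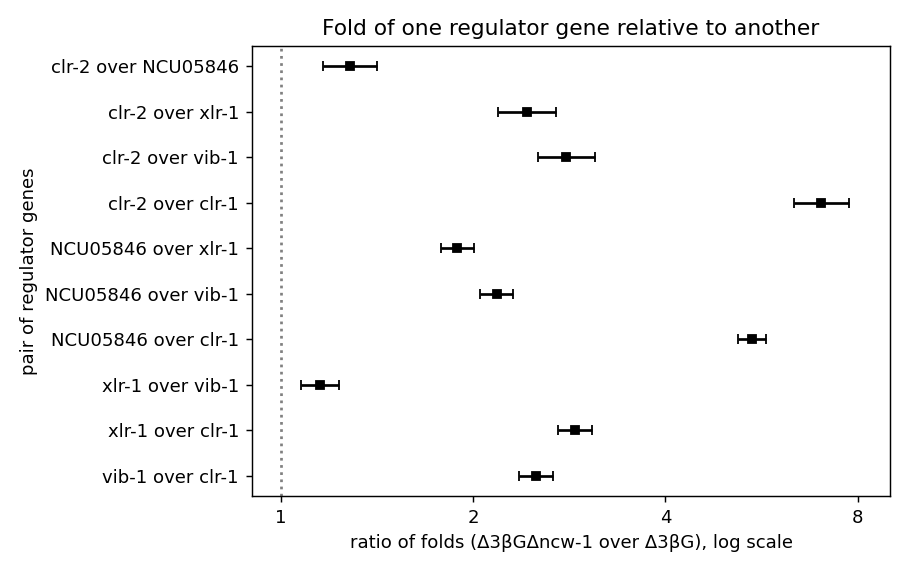
Ratio of the folds (Δ3βGΔncw-1 over Δ3βG) of each of the 10 pairs of regulator genes on a log axis, with bars for the 95% interval from the recovered reads, and a dotted line at equal folds. The 4 pairs with clr-1 as second gene run from 2.51 to 7.01, and xlr-1 over vib-1 lies nearest to equal folds at 1.15.

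Genes for the breakdown of cellulose and uptake of its products were nearly all higher in Δ3βGΔncw-1. Which of these genes CLR-1 and CLR-2 act on was not tested. All 21 listed genes passed the minimum, with 20 at least 2-fold higher and 1 lower, against 8.08% and 11.1% of all 5989 genes. Their median log2 ratio was 5.38, against −0.32 over all 5989 genes. The highest ratios were those of the lytic polysaccharide monooxygenase genes gh61-3 (1797 RPKM in Δ3βGΔncw-1 and 13.4 RPKM in Δ3βG, log2 ratio 6.96) and gh61-7 (1518 RPKM in Δ3βGΔncw-1 and 12.5 RPKM in Δ3βG, log2 ratio 6.82). The lowest were NCU07974, with 18.3 RPKM in Δ3βGΔncw-1 and 41.7 RPKM in Δ3βG, and the cellulase gene gh7-2, with 39.7 RPKM in Δ3βGΔncw-1 and 5.75 RPKM in Δ3βG. NCU07974 was less than 2-fold lower once ratios were centred on the median gene. Of the 21 genes, 16 had at least 10 RPKM in Δ3βG, and 15 of these were higher, against 4.82% of 5667 genes. The log2 ratio of clr-2, 3.93, was below the median of this list and close to those of the cellodextrin transporter genes cdt-1 and cdt-2, at 4.30 and 3.93.

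Genes for xylan breakdown and xylose use were also mostly higher, and whether XLR-1 acts on each of them was not tested. Of 14 listed, 12 passed the minimum of 10 RPKM, with 11 at least 2-fold higher and 0 lower. Of all 5989 genes, 8.08% were higher and 11.1% were lower. The median log2 ratio of the 14 was 3.44, above the 2.78 of xlr-1 itself. Only 4 of the 14 reached 10 RPKM in Δ3βG, of which 3 were higher, so the limit fixed the direction of most. Of all 5667 genes with at least 10 RPKM in Δ3βG, 4.82% were higher. The highest log2 ratio was that of the xylanase gene gh11-2, 8.57, with 1517 RPKM in Δ3βGΔncw-1 and 2.98 RPKM in Δ3βG. NCU08785 followed at 7.57, with 920 RPKM in Δ3βGΔncw-1 and 3.85 RPKM in Δ3βG. The lowest among those that reached 10 RPKM were NCU00891 at 1.92 and the xylulokinase gene xyk-1 at 0.78, with 29.6 RPKM in Δ3βGΔncw-1 and 16.8 RPKM in Δ3βG. Endoxylanase genes, 4 of 4 higher, had a median log2 ratio of 5.52, and the 3 listed genes of xylose use one of 1.92.

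Other listed regulators of polysaccharide use showed no common direction. Of 12, all of which had 10 RPKM or more in Δ3βG, 2 were at least 2-fold higher, 3 were lower and 7 were neither. Of all 5989 genes, 8.08% were higher and 11.1% were lower, and of the 5667 with at least 10 RPKM in Δ3βG, 4.82% were higher. The median log2 ratio of the 12 was −0.17. The higher pair, NCU04295 and NCU05414, had 60.0 and 75.3 RPKM in Δ3βGΔncw-1 and 25.1 and 33.0 RPKM in Δ3βG, folds of 2.39 and 2.28 that lie close to that of clr-1. The gene furthest down was rca-1 (NCU01312), with 13.4 RPKM in Δ3βGΔncw-1 and 185 RPKM in Δ3βG, 13.9-fold lower (95% interval 12.6 to 15.3). The conidiation regulator gene fl, which is not among these 12, had 11.99 RPKM in Δ3βGΔncw-1 and 49.9 RPKM in Δ3βG. It is 1 of the 6 conidiation markers, of which 3 were lower and 3 were neither. Any relation of these markers to rca-1 was not tested. The carbon catabolite repressor gene cre-1 (NCU08807) had 11.04 RPKM in Δ3βGΔncw-1 and 66.3 RPKM in Δ3βG, 6.01-fold lower. The third lower gene, NCU09333, had 123 RPKM in Δ3βGΔncw-1 and 251 RPKM in Δ3βG, a log2 ratio of −1.03 that was −0.71 relative to the median gene.

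The other 7 regulators stayed within 2-fold. NCU01856 had 190.2 RPKM in Δ3βGΔncw-1 and 137 RPKM in Δ3βG, and the velvet gene ve-1 had 68.4 RPKM in Δ3βGΔncw-1 and 51.4 RPKM in Δ3βG. The sterol regulatory element binding protein gene sah-2 had 64.4 RPKM in Δ3βGΔncw-1 and 59.9 RPKM in Δ3βG. The starch regulator gene col-26 had 53.8 RPKM in Δ3βGΔncw-1 and 60.8 RPKM in Δ3βG, and NCU05064 63.6 RPKM in Δ3βGΔncw-1 and 71.9 RPKM in Δ3βG. The log2 ratios of col-26 and NCU05064, both −0.17, were both 0.15 relative to the median gene. NCU09033 had 20.3 RPKM in Δ3βGΔncw-1 and 28.5 RPKM in Δ3βG, and NCU00646 7.98 RPKM in Δ3βGΔncw-1 and 10.5 RPKM in Δ3βG. All 5 regulator genes described first had a higher log2 ratio than any of these 12. The highest of the 12 was 1.23, for NCU04295, against 1.27 for clr-1. The fold intervals of clr-1 (2.36 to 2.54) and NCU04295 (2.26 to 2.54) overlapped, so their order is within counting error. A log2 ratio as high as that of clr-1 or higher was found in 6.18% of all 5989 genes. The comparison of the 5 with the 12 is a description of lists chosen with earlier results of these data known.

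**Figure D4:**
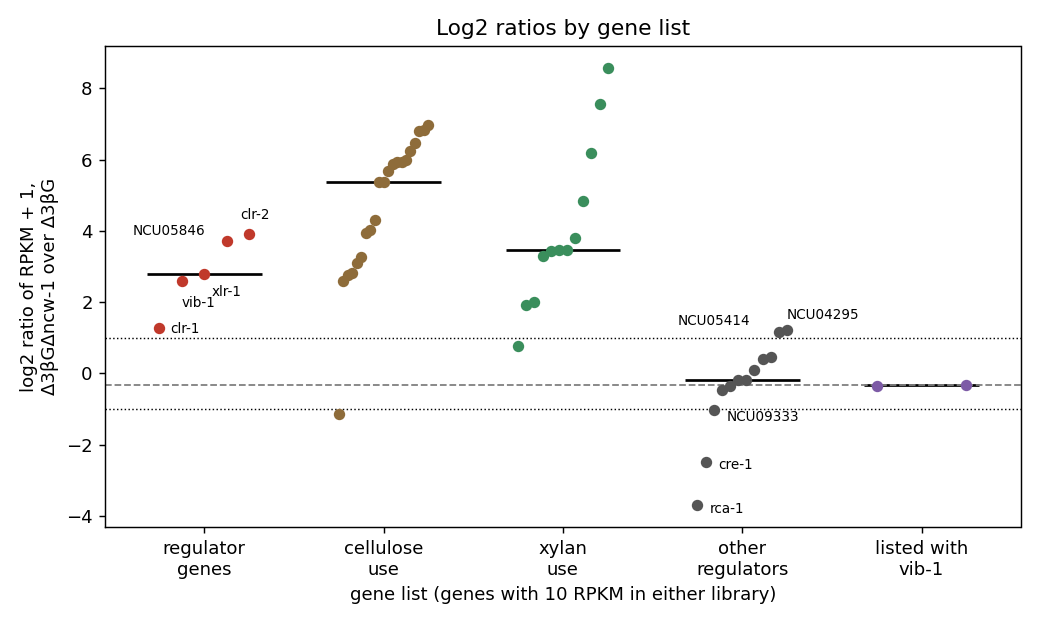
Log2 ratio (RPKM + 1 in Δ3βGΔncw-1 over that in Δ3βG) for each gene past the 10 RPKM minimum in 5 gene lists, with solid bars at list medians, dotted lines at 2-fold and a dashed line at the median of all 5989 genes, −0.32. The 5 regulator genes lie between 1.27 and 3.93. The median of the genes of cellulose use, 5.38, lies above that range, and that of the genes of xylan use, 3.46, lies within it. The other regulators spread around the dashed line from −3.70 to 1.23.

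Of 7 genes tied to vib-1 by family or by its role in heterokaryon incompatibility, the 4 that reached 10 RPKM were not higher, while the 3 below it had higher values in Δ3βGΔncw-1. The family member fsd-1 (NCU09915) had 13.4 RPKM in Δ3βGΔncw-1 and 17.2 RPKM in Δ3βG. NCU04729, listed with it, had 13.9 RPKM in Δ3βGΔncw-1 and 17.5 RPKM in Δ3βG. Their log2 ratios of −0.34 and −0.31 were −0.02 and 0.008 relative to the median gene. Of 5 genes listed for heterokaryon incompatibility, 2 reached 10 RPKM, of which 0 were higher and 1 was at least 2-fold lower. Of all 5989 genes, 8.08% were higher and 11.1% were lower. The lower gene was NCU07887, with 79.5 RPKM in Δ3βGΔncw-1 and 212 RPKM in Δ3βG, and het-c was just short of the limit with 38.9 RPKM in Δ3βGΔncw-1 and 77.1 RPKM in Δ3βG. The other 3 were below 10 RPKM in both libraries. The RPKM of het-6 was 9.71 in Δ3βGΔncw-1 and 6.91 in Δ3βG, that of tol 5.19 in Δ3βGΔncw-1 and 2.35 in Δ3βG, and that of pin-c 2.81 in Δ3βGΔncw-1 and 0.541 in Δ3βG. The fold of pin-c was 5.19 (95% interval 3.51 to 7.89), that of tol 2.20 and that of het-6 1.40, and with no minimum pin-c counted as higher by the size rule. The gene tol is known to be needed for vegetative incompatibility between the mating types.

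The genes nearest to each regulator gene in their pair of levels were sought by Euclidean distance in log2(RPKM + 1) over the 2 libraries among the 5989 genes that passed the minimum. With only 2 libraries, such nearness describes a level and a ratio and nothing more. For clr-2 they were NCU05855, with 128 RPKM in Δ3βGΔncw-1 and 6.65 RPKM in Δ3βG, and NCU03181, with 126 RPKM in Δ3βGΔncw-1 and 6.50 RPKM in Δ3βG. For NCU05846 they were NCU09689 and NCU08397, at distances of 0.30 and 0.37. For xlr-1 they were NCU01045, at a distance of 0.088, and vib-1 itself, at 0.14. For vib-1 they were NCU03318 and NCU00321, and for clr-1 NCU05493 and NCU06005. Within a distance of 0.5 there were 42 genes around clr-1, 11 around clr-2, 9 around xlr-1, 8 around vib-1 and 5 around NCU05846, so the levels of NCU05846 were shared by the fewest genes.

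The next genes along the chromosome, by gene order in the reference assembly NC12, did not move with most of the regulator genes. Windows of 5 genes on either side were chosen after the values had been seen, and genes without a row in the RPKM table, among them the transfer RNA genes beside xlr-1 and a noncoding RNA gene beside vib-1, were skipped. Around clr-1, xlr-1 and vib-1, 7, 8 and 6 genes had 10 RPKM or more in at least 1 library, and every such gene was within 2-fold. Around clr-2, 2 of 6 were at least 2-fold higher and 1 was lower, against 8.08% and 11.1% of all 5989 genes. The genes directly beside clr-2, NCU16830 and NCU08043, were below 10 RPKM in both libraries. Around NCU05846, 3 of 5 were at least 2-fold higher, against 8.08% of all 5989 genes. Of these 3, NCU05841 and NCU05848 were below 10 RPKM in Δ3βG, as was 1 of the 2 higher genes around clr-2, chol-1, so the minimum fixed their direction. Directly after it lay NCU05848, with 48.8 RPKM in Δ3βGΔncw-1 and 0.507 RPKM in Δ3βG (96.2-fold higher, 95% interval 59.1 to 169, from 1503 reads in Δ3βGΔncw-1 and 16 reads in Δ3βG). Directly before it lay NCU05845, at 0 in both libraries. No regulator gene overlapped a gene next to it in that assembly.

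**Figure D5:**
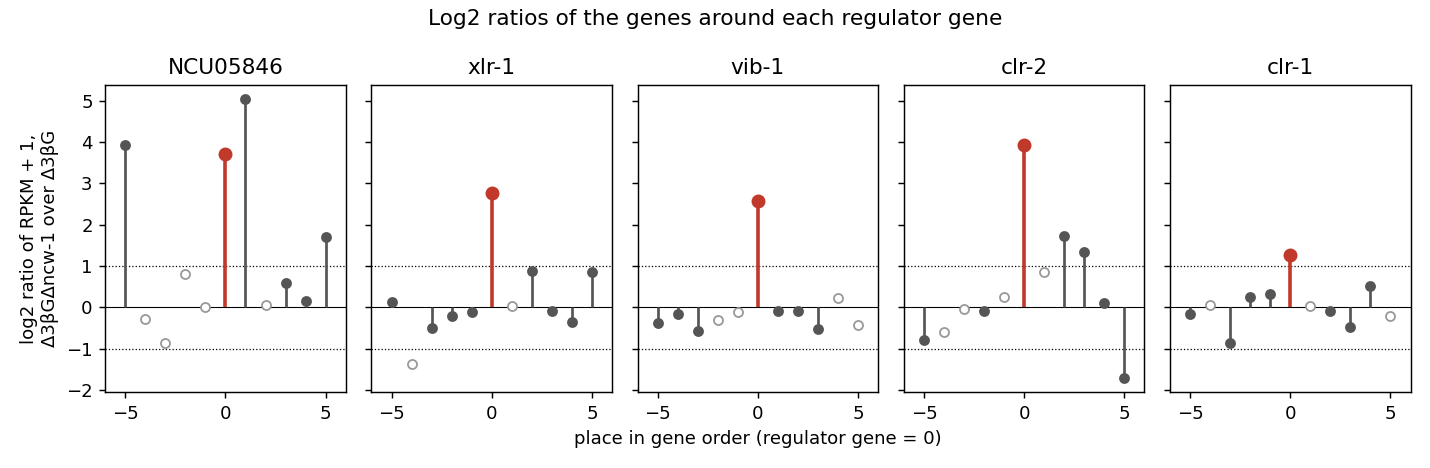
Log2 ratio (RPKM + 1 in Δ3βGΔncw-1 over that in Δ3βG) of each regulator gene (red, place 0) and of the 5 genes on either side in gene order, with filled points for genes past the 10 RPKM minimum, open points for the rest and dotted lines at 2-fold. The filled neighbours of clr-1, xlr-1 and vib-1 lie within 2-fold, while NCU05846 has 3 neighbours above the upper line.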

How the data were processed

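Total RNA of mycelia was sequenced, 1 library per genotype. The submitters' processing notes name TopHat2 2.0.8b, HTSeq 0.5.4p2 and DESeq 1.5.1. For build, annotation and strand setting, nothing is given in the sources used here. Overlapping antisense transcripts may therefore share reads. The authors deposited RPKM values for 9730 genes, 1 column per library per the file headers, of which 0 were left unused. Of the genes, 9729 matched the RefSeq table of assembly NC12, used for symbols, gene order and spans.

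Whole reads were recovered as RPKM × model length × library total, with totals of 20019350 reads in Δ3βGΔncw-1 and 20510798 reads in Δ3βG found from the smallest steps between values. Lengths from 50% of the span up were tried, and a number counted as whole within 1e-06 reads plus 1e-09 of its size. Of 74 listed genes above 0, 74 gave whole reads in both libraries, 68 of them with a single length, among them all 5 regulator genes. The recovery was tested on simulated data. Folds of RPKM carry exact Clopper-Pearson intervals at 95%, conditional on the summed reads, and ratios of folds carry intervals from the log scale. All intervals cover counting error only.

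The log2 ratio divides RPKM + 1 in Δ3βGΔncw-1 by that in Δ3βG and so understates the change of low genes. Genes named are the regulator genes and every member of the regulator, vib-1, incompatibility, mating-type and deleted lists above 1 RPKM. Also named are the 2 highest and 2 lowest of the cellulose list and of the xylan list, and the nearest and adjacent genes. Any other gene was picked with its values in view. The members and lists were chosen with earlier results of these data known. Planned descriptions of promoter and protein sequences were not made. Python 3.11.15, NumPy 2.4.6, pandas 2.3.3 and SciPy 1.17.1 were used.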

Additional observations from a re-analysis of the deposited data

How the results depend on the processing

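With 1 library per genotype, no library could be left out, and counting error is the only error that depth gives. No paired analysis was possible because each group has a single library. All 5 regulator genes stayed at least 2-fold higher with 0.1 or 5 RPKM added and with a minimum of 5 RPKM, 50 RPKM or none. The same held with a minimum on the mean of both libraries, equal sums, median centring and trimmed mean scaling. By a 4-fold rule 4 were higher, all except clr-1. With 10 RPKM required in Δ3βG, which leaves out clr-2, the other 4 were at least 2-fold higher. Median centring moved the median gene by 0.32 and trimmed mean scaling by 0.31. In the order clr-1, clr-2, NCU05846, xlr-1 and vib-1, the log2 ratios were 1.60, 4.25, 4.04, 3.10 and 2.90 with median centring, 1.60, 4.25, 4.04, 3.11 and 2.91 with trimmed mean scaling, and 1.21, 3.40, 3.63, 2.62 and 2.44 with 5 RPKM added, where NCU05846 passed clr-2. With 0.1 RPKM added that of clr-2 was 4.08, and with equal sums those of clr-1 and NCU05846 were 1.22 and 3.66. The ratios of folds did not change with the largest read solution, since each regulator gene had a single one. Of the cellulose genes, 0 were lower with median centring, trimmed mean scaling, a minimum of 50 RPKM or a 4-fold rule, against 1. With 10 RPKM required in Δ3βG, a limit added after the values had been seen, 3 xylan genes were higher, against 11. Of the other regulators, 0 were higher by a 4-fold rule, against 2. Of the incompatibility genes, 1 was higher with no minimum, 2 were lower with equal sums and 0 were lower by a 4-fold rule. The cause of these shifts is the construction of each alternative.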

Other observations

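The run of genes of the table after NCU05846 held further large differences, which were looked up after their values had been seen. Over 12 genes on either side, 16 of 24 reached 10 RPKM in either library, with 6 past 2-fold higher in Δ3βGΔncw-1, 5 of them past 4-fold, and 2 lower. The shares of all 5989 genes were 8.08% past 2-fold higher, 3.41% past 4-fold higher and 11.1% lower. Of the 6 higher genes, NCU05841, NCU05848, NCU05854 and NCU05855 were below 10 RPKM in Δ3βG and passed the minimum only through Δ3βGΔncw-1, which fixed their direction. NCU05852, NCU05853, NCU05854 and NCU05855 follow each other and were all higher. NCU05853 had 5194 RPKM in Δ3βGΔncw-1 and 1038 RPKM in Δ3βG, and NCU05854 had 51.8 RPKM in Δ3βGΔncw-1 and 4.76 RPKM in Δ3βG. NCU05855, at place 8 after NCU05846, was also the gene nearest to clr-2 in its pair of levels. A little further on the difference had the other direction. NCU05858 had 1.56 RPKM in Δ3βGΔncw-1 and 119 RPKM in Δ3βG, and NCU05859 had 0.962 RPKM in Δ3βGΔncw-1 and 40.3 RPKM in Δ3βG.

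Before NCU05846, NCU05841 had 136 RPKM in Δ3βGΔncw-1 and 7.89 RPKM in Δ3βG, a 17.2-fold difference (95% interval 15.2 to 19.5) as large as that of clr-2, with 4 genes below 10 RPKM in both libraries lying between it and NCU05846. Beside clr-2, the genes at places 2 and 3 after it, NCU08044 and chol-1, were higher at 3.35-fold and 2.68-fold, and NCU08047 at place 5 was lower, with 11.5 RPKM in Δ3βGΔncw-1 and 40.0 RPKM in Δ3βG.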
